A study of Mus musculus with 20 samples.

Results

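The genes described here are 33 genes that respond to low oxygen or carry out glycolysis, chosen by name from a fixed list. Each was represented by the probe set with the highest mean among those that the platform assigns to that gene alone, and 31 of the 33 had such a probe set, among 19936 genes measured in all. Gpi1 and Eno1, a pair of glycolytic enzymes, had none and have no values. The study compared limbs of 129Sv mouse embryos at embryonic day 13.5, wild type or Lmx1b -/-, using 1 Affymetrix GeneChip ST array of total RNA for each limb. Lmx1b encodes the LIM-homeodomain factor that gives the dorsal limb its identity. Crossing genotype with limb type gave 4 groups, each with 5 arrays from right and left limbs. Arrays are named by genotype, limb type and the replicate number of the title, 1 to 5 for forelimbs and 6 to 10 for hindlimbs. The wild-type limbs are the only controls, and the labels name no allele other than the Lmx1b loss of function and do not say which limbs came from 1 embryo. All levels are log2 intensities, so a difference of 1 is a doubling.

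Cells sense oxygen through the hypoxia-inducible factors (HIF). When oxygen is present, prolyl hydroxylases of the Egln family mark the HIF alpha subunit for binding by Vhl and destruction. When oxygen is scarce the subunit persists, pairs with Arnt and raises the transcription of glucose transporters, glycolytic enzymes, angiogenic factors and the hydroxylases themselves. In the limb bud the condensing cartilage is poorly vascularised, and HIF and glycolysis are needed for its growth.

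Genotype and limb type could be checked against their own genes. Lmx1b itself, read by a probe set that was not checked against the deleted part, was 6.30 ± 0.127 (SD, n = 5) in wild-type forelimbs against 5.72 ± 0.0785 in knockout forelimbs, and 6.45 ± 0.0826 against 5.92 ± 0.114 in hindlimbs, with no overlap between genotypes in either limb type. Prrx1, a marker of limb mesenchyme, lay between 9.50 and 9.92 on all 20 arrays. Tbx5, the forelimb factor, lay between 8.26 and 8.93 in forelimbs and between 4.38 and 5.09 in hindlimbs, and Pitx1, the hindlimb factor, between 5.18 and 5.75 in forelimbs and between 8.22 and 8.57 in hindlimbs. Y-linked genes were high on 13 arrays; in forelimbs these were 5 wild types and 2 knockouts, in hindlimbs 3 of each genotype, so sex was not balanced between genotypes in forelimbs. Values come from whole limbs, so a change in the share of a cell type cannot be told apart from a change in RNA per cell. Precision is limited by the number of arrays.

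The first comparison asked how the loss of Lmx1b altered these genes, averaged over both limb types. Of the 31 genes, 28 had a higher mean in knockout limbs, with a median change of 0.115, while over all genes 48.9% had a higher mean and the median change was -0.002. The differences were small. Within groups these genes moved together from limb to limb, as given below, so counts of them are not counts of independent genes. In limma only Higd1a passed an adjusted p of 0.05, so 1 of 31 genes was called, beside 2.04% of all genes in the same comparison. At an unadjusted p under 0.05 there were 12 of the 31 genes, each higher in the knockout, beside 14.7% of all genes. Those 12 were Higd1a, Kdm3a, Pgam1, Pgk1, Egln1, Pfkfb3, Ankrd37, Hk1, Vegfa, Pfkl, Bnip3 and Pkm. The probe sets of Hk1 disagree in direction in hindlimbs; without Hk1, 27 of 30 genes were higher and 11 had an unadjusted p under 0.05.

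Higd1a encodes a small protein of the inner mitochondrial membrane that is induced by low oxygen and tunes respiratory chain activity. Its levels in wild-type forelimbs 1 to 5 were 6.65, 6.31, 6.11, 6.18 and 5.81, and in knockout forelimbs 1 to 5 they were 6.64, 6.45, 6.60, 6.58 and 6.89. In wild-type hindlimbs 6 to 10 they were 6.56, 6.38, 6.23, 6.26 and 6.42, and in knockout hindlimbs 6 to 10 they were 6.88, 6.70, 6.36, 6.77 and 6.46. The forelimb groups overlapped through the high wild-type forelimb 1, and 3 of 5 knockout hindlimbs lay above every wild-type hindlimb. The change over both limb types was 0.34 (SE 0.0878, a 1.27-fold increase, limma adjusted p = 0.0459), with a 95% interval of 0.16 to 0.52. The call sat at the edge of the threshold: it was lost in 15 of the 20 fits that left out 1 array, in which the adjusted p ran from 0.0071 to 0.0887. The second Higd1a probe set gave 0.16 (SE 0.0839, limma adjusted p = 0.388). Several cell type markers moved with genotype in the same arrays. Over both limb types, limma called lower in the knockout 4 of 16 skeletal muscle markers, 3 of 7 of hypertrophic cartilage and bone, 2 of 11 of endothelium and 2 of 10 of macrophages, and none of these higher. Of nerve and Schwann cell markers 1 of 10 was called higher and 1 lower. None of 14 cartilage markers was called, with 13 lower and a median of -0.157. In forelimbs the medians were -0.431 for muscle, -0.334 for cartilage and 0.237 for limb mesenchyme, of which all 10 markers were higher and none was called. In hindlimbs they were -0.009, -0.001 and -0.045, and none of these 3 lists had a called gene. The erythroid median was -0.425 in forelimbs, with 6 of 7 markers lower, and -0.052 in hindlimbs, and none was called. All 11 cell cycle genes were higher over both limb types, with a median of 0.088, and Cdk1 was called. The muscle mean ran from 7.75 to 8.22 in wild-type forelimbs and from 7.36 to 7.77 in knockout forelimbs. The part of the other lists in the Higd1a change was not tested. With the muscle mean as a covariate, the Higd1a change was 0.245 (SE 0.102, limma adjusted p = 0.514).

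**Figure D1:**
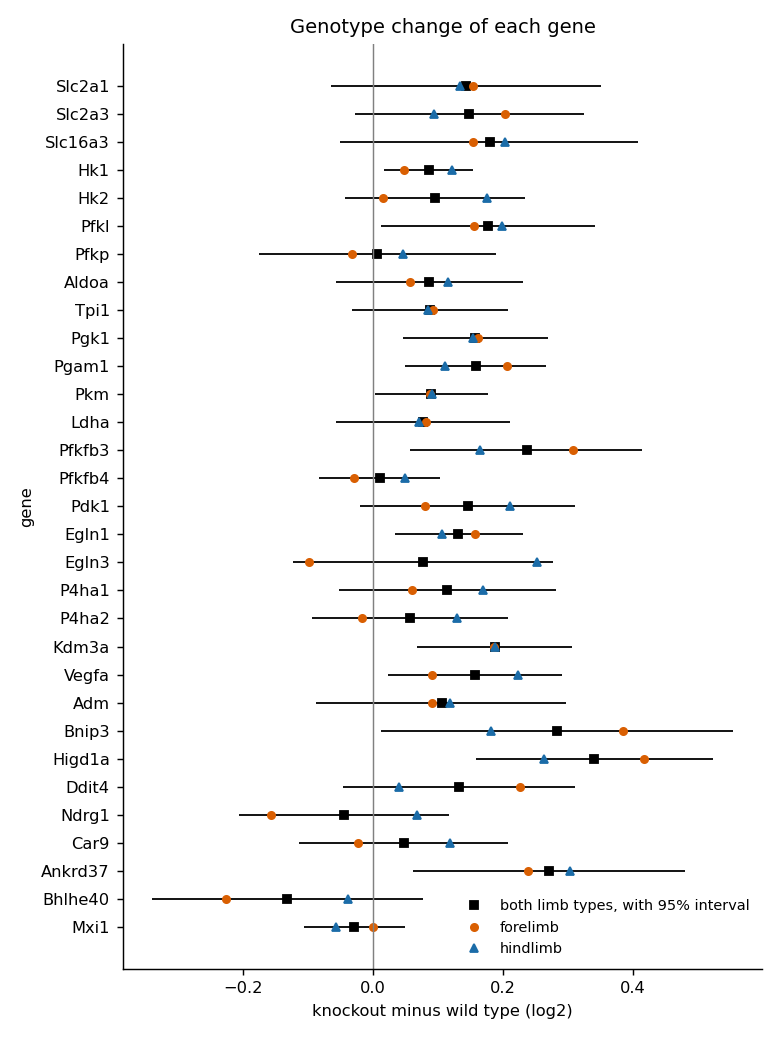
Knockout minus wild-type change (log2) of each of the 31 genes, with genes on the vertical axis in order of role. Squares with lines are the mean over both limb types with its 95% interval, circles the forelimb and triangles the hindlimb change. Of the 31 squares, 28 lie to the right of 0, and 12 intervals do not reach 0.

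Averaged over the 31 genes, the level per array was 7.53 ± 0.0853 (SD, n = 5) for wild types and 7.63 ± 0.129 for knockouts in forelimbs. In hindlimbs it was 7.49 ± 0.0414 for wild types and 7.62 ± 0.207 for knockouts. The ranges overlapped, from 7.39 to 7.60 against 7.44 to 7.80 in forelimbs and from 7.42 to 7.52 against 7.44 to 7.97 in hindlimbs. The SD was larger in the knockout groups, whose highest arrays were knockout forelimb 5 at 7.80 and knockout hindlimb 6 at 7.97. Without knockout hindlimb 6 the knockout hindlimbs had a mean of 7.54, from 7.44 to 7.62. No array of the mean itself passed Dixon's test for an outlying value. A mean over chosen genes is given as a description, without a test.

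**Figure D2:**
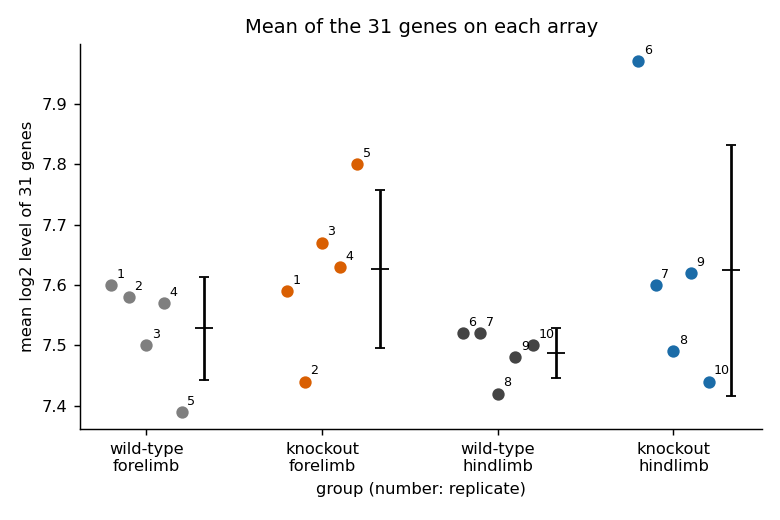
Mean log2 level of the 31 genes (vertical axis) on each array, by group. Points are arrays labelled with their replicate number, and the bar beside each group is its mean with 1 SD. Knockout hindlimb 6 at 7.97 is the highest of all 20 arrays, and wild-type forelimb 5 at 7.39 the lowest.

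The genes moved together from limb to limb within a group. The first axis of the variation within groups held 63.7% of the variance of the 31 genes, and 30 of them had the same sign on it. Over all genes the first axis held 19.0%, with 55.3% of genes on one side. The genes were not scaled and the sets differ greatly in size, so these shares are not directly comparable. Without knockout hindlimb 6 the axis still held 52.8% for the 31 genes (29 with the same sign) and 21.1% for all genes. The median SD within a group was 0.138 in wild type and 0.209 in knockouts, and 27 of the 31 genes had the larger SD in knockouts, as 60.5% of all genes did. Without knockout hindlimb 6 the knockout value was 0.172, with 25 of the 31 genes and 55.4% of all genes.

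**Figure D3:**
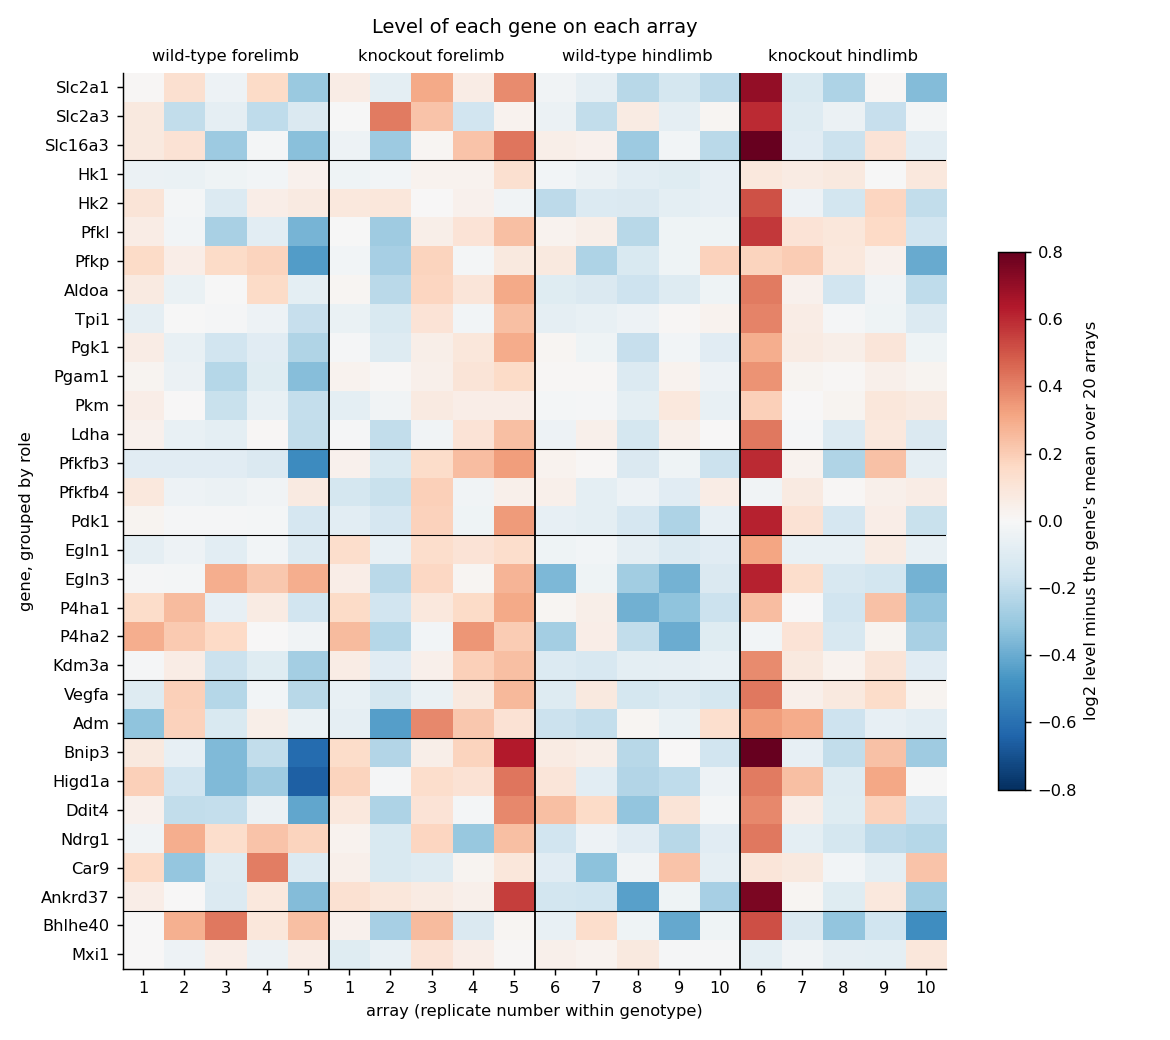
Log2 level of each of the 31 genes on each of the 20 arrays, minus the gene's mean over all arrays (colour, from 0.8 below in blue to 0.8 above in red). Columns are arrays in their groups and rows are genes grouped by role, from transporters at the top to transcriptional repressors at the bottom. The column of knockout hindlimb 6 is above the mean of all arrays for most genes, and wild-type forelimb 5 has the lowest mean level, 7.39.

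Knockout hindlimb 6 stood apart most. It was the highest of the 5 knockout hindlimbs in 25 of the 31 genes, beside 24.4% of all genes, and the highest of all 20 arrays in 21 of the 31, beside 8.57% of all genes. Its median difference from the mean of the other 4 knockout hindlimbs was 0.39 over the 31 genes and -0.02 over all genes. On it 9 of the 31 were at least 1.5 times higher than that mean, beside 1.51% of all genes, and none was as much lower. The genes farthest above were Bnip3, a mitophagy receptor (9.12 against 7.89 to 8.41 on the other 4), Slc2a1, the main glucose transporter of embryonic cells (9.86 against 8.81 to 9.17), Slc16a3, the lactate exporter (8.20 against 7.22 to 7.50), and Ankrd37, a HIF-induced ankyrin-repeat gene (6.03 against 5.0 to 5.36). Bhlhe40 (5.11 against 4.10 to 4.48), Egln3 (6.05 against 5.06 to 5.58), Slc2a3 (9.87 against 9.09 to 9.26), Pdk1 (8.33 against 7.54 to 7.83) and Pfkfb3 (6.56 against 5.72 to 6.20) were the other 5. Being 1 array, it gives no test.

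Other gene lists moved on the same array. All 11 epidermis markers were above the other 4 knockout hindlimbs, with a median difference of 0.82; their mean was 7.72, against 6.63 to 7.07 on the other 4 and 6.63 to 7.61 on the 19 other arrays. Of 14 cartilage markers, 13 were below, with a median difference of -0.68; Sox9, the master regulator of chondrocytes, was 7.51 against 8.57 to 8.76, and Col2a1, the main cartilage collagen, 7.34 against 7.97 to 8.39. On this array the epidermis markers ran from 5.93 for Grhl2 to 10.47 for the basal keratin Krt5. Of 38 other genes known to respond to low oxygen, 20 were above all of the other 4, beside 24.4% of all genes. Another 5 were below all of the other 4, and the median difference of the list was 0.13. Edn1, Ak4, Pygl and Fam162a were the farthest above in this list, by 0.82 to 0.99. Of 18 HIF regulators 9 were below the other 4 and 1 was above, beside 6181 of all 19936 genes below, and Hif1a was 8.39 against 8.62 to 8.75. Of 17 other glycolysis genes, 2 were above the other 4 and 6 below, with a median difference of -0.09. Of 11 cell cycle genes 8 were below, and of 12 immediate early genes 7. The part of the epidermis and cartilage content in the levels of the 31 genes was not tested.

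**Figure D4:**
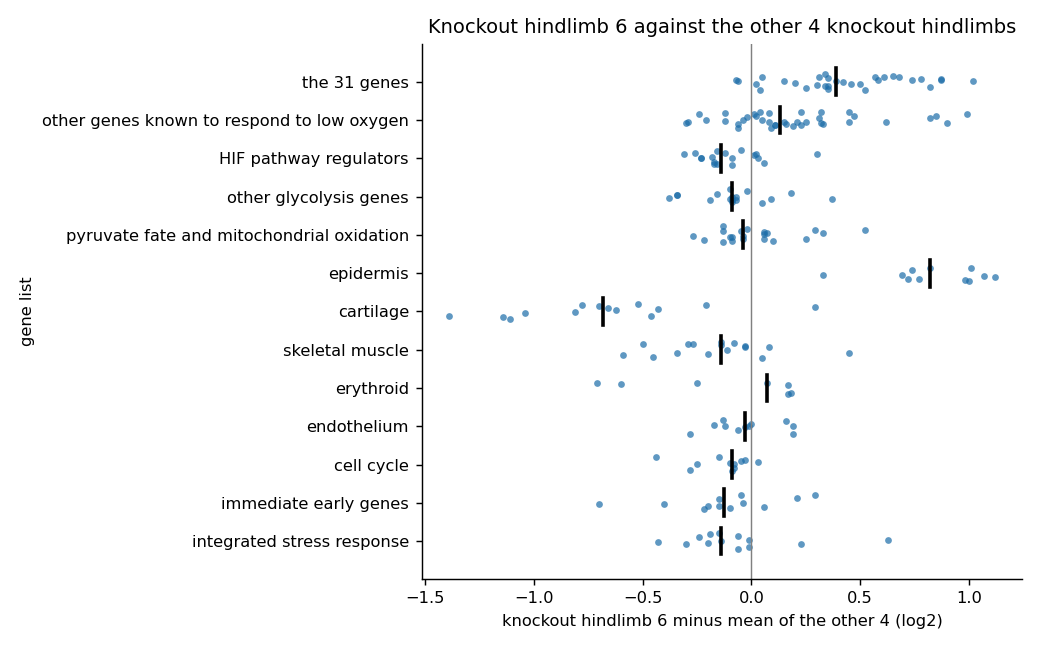
Log2 level on knockout hindlimb 6 minus the mean of the other 4 knockout hindlimbs (horizontal axis), by gene list. Each point is a gene, spread vertically at random within its list, and the black bar is the median of the list. The medians are 0.39 for the 31 genes, 0.82 for epidermis and -0.68 for cartilage.

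The genotype comparison leaned on this array in hindlimbs. There 29 of the 31 genes were higher in the knockout with a median change of 0.122, beside 48.3% of all genes and a median of -0.004. Without knockout hindlimb 6 there were 23 of the 31 with a median of 0.051, beside a median of -0.001 over all genes. Over both limb types the median was 0.081 without it, with 27 of 31 genes higher.

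The bases just upstream of the start site are shown for the 4 genes that stood highest on knockout hindlimb 6 and for Higd1a, because HIF binds a short core motif that often lies near the start site. They are the 250 bases before the start site, from RefSeq on GRCm38.p6, in the direction of transcription. Capitals mark each match to the core hypoxia response element ACGTG or GCGTG on either strand, and overlapping matches count separately. The palindrome CACGTG, which is also the E-box bound by Myc and Bhlhe40, counts on both strands. The Bnip3 window is chr7:138909507-138909756 on the minus strand and Slc16a3 is chr11:120948817-120949066 on the plus strand. Slc2a1 is chr4:119108495-119108744 on the plus strand, Ankrd37 is chr8:45999851-46000100 on the minus strand and Higd1a is chr9:121857797-121858046 on the minus strand.
Bnip3: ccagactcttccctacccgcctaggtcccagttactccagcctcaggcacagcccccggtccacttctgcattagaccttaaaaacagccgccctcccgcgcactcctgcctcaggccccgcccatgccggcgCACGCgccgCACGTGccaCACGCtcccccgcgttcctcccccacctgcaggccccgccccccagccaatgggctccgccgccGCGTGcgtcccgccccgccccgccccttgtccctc
Slc16a3: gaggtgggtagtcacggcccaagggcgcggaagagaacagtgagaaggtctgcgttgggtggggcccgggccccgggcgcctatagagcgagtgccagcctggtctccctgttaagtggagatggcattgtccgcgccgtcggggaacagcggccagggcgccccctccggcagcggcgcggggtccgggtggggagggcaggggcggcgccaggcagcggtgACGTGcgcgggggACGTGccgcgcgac
Slc2a1: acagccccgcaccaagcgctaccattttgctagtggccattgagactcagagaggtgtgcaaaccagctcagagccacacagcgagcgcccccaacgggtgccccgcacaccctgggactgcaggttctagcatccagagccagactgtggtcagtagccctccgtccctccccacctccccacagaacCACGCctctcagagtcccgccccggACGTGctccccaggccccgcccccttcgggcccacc
Ankrd37: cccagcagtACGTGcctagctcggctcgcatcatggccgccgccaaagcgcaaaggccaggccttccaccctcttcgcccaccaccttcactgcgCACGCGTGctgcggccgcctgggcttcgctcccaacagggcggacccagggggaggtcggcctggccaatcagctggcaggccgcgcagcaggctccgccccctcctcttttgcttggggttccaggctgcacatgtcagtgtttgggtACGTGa
Higd1a: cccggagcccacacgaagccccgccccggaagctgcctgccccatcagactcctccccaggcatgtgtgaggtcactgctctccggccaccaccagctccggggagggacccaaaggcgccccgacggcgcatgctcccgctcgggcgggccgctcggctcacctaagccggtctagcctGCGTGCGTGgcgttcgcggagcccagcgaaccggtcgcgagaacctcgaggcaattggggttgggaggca

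Bnip3 had 5 matches, including a CACGTG, Ankrd37 had 4, and the other 3 genes had 2 each. Of the 31 genes, 28 had an entry, with 40 start sites in all, and 27 of these 28 had a match before at least 1 start site; Tpi1 had none. By start site, 31 of 40 windows held a match (77.5%), beside 38.6% of the 32851 windows of all genes. For ACGTG alone the shares were 55.0% and 16.6%. Bhlhe40, Ndrg1 and Slc2a3 had no entry. Most of the genes were listed because they are known HIF targets, so this share is no independent evidence, and a match is only a string of letters, not a bound site.

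Other arrays stood apart in less degree, and cartilage markers moved with several of them. Knockout forelimb 5 was the highest of its group in 21 of the 31 genes, beside 23.4% of all genes, with a median of 0.26 above the other 4. Bnip3 (8.81), Ankrd37 (5.83) and Slc16a3 (7.82) were again high there. Of 14 cartilage markers 8 were above the other 4 on it and none was below, its epidermis mean of 7.28 was inside the range of its group, and 6 of 7 erythroid markers and 9 of 11 cell cycle genes were below the other 4. Knockout forelimb 2 was the lowest of its group in 24 of the 31 genes, beside 25.1% of all genes. It had 13 of 14 cartilage, 8 of 11 endothelium and 6 of 10 macrophage markers below the other 4. Wild-type forelimb 5 was the lowest of its group in 20 of the 31 genes, beside 25.9% of all genes. All 14 cartilage and 7 of 10 limb mesenchyme markers were below the other 4 on it. Above the other 4 were 8 of 11 epidermis and 8 of 16 muscle markers, beside 20.4% of all genes. Knockout hindlimb 10 was also the lowest in 20 of the 31 genes, beside 16.7% of all genes. There no cartilage marker was outside the range of the other 4, while 6 of 10 macrophage markers were below it. The part of these cell types in the levels on these arrays was not tested. Without knockout forelimb 5 the median forelimb genotype change was 0.04 in place of 0.092.

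**Figure D5:**
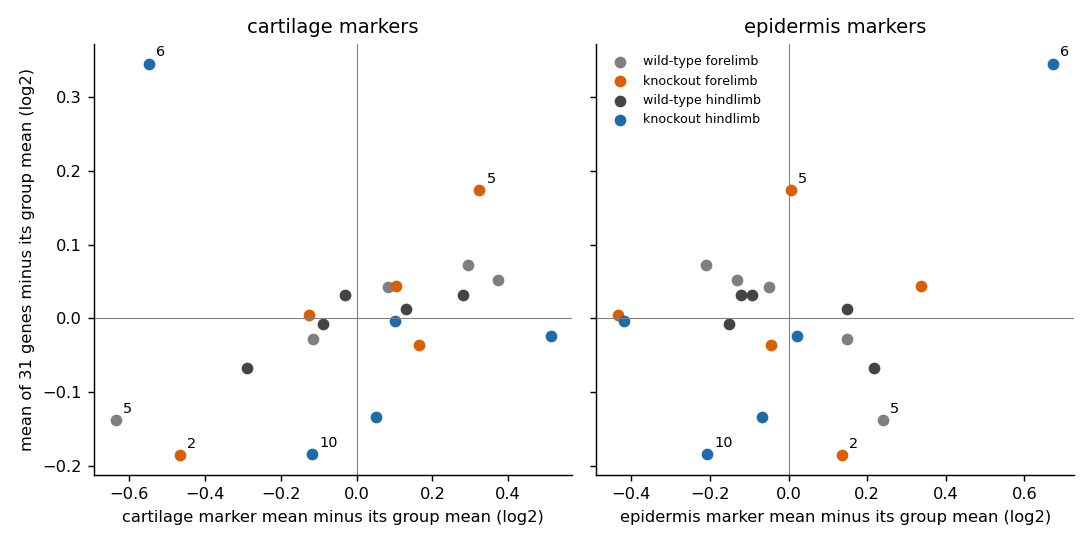
Mean of the 31 genes minus its group mean (vertical axis, log2) against the mean of 14 cartilage markers (left) and of 11 epidermis markers (right), each minus its group mean. Each point is an array, coloured by group, and those named in the text carry their replicate number. Knockout hindlimb 6 is low in cartilage and high in epidermis, while knockout forelimb 2 and wild-type forelimb 5 are low in cartilage and low in the 31 genes.

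Glucose and lactate transport was represented by Slc2a1 and Slc2a3, which import glucose, and Slc16a3. None of the 3 passed the test in any comparison. Over both limb types their changes in the knockout were 0.14 (SE 0.10), 0.15 (SE 0.0847) and 0.18 (SE 0.11). Slc16a3 in wild-type forelimbs 1 to 5 was 7.47, 7.51, 7.10, 7.38 and 7.06, and in knockout forelimbs 1 to 5 it was 7.35, 7.10, 7.41, 7.62 and 7.82. Wild-type hindlimbs 6 to 10 had 7.44, 7.43, 7.10, 7.37 and 7.18, and knockout hindlimbs 6 to 10 had 8.20, 7.30, 7.22, 7.50 and 7.31. The groups overlapped in both limb types, and apart from knockout hindlimb 6 the knockout hindlimbs did not exceed 7.50. Slc2a3 did not follow the others on knockout forelimb 2, where it was the highest of its group at 9.69 while Slc2a1 was the lowest at 9.08.

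All 10 measured glycolytic enzymes had a higher mean in the knockout over both limb types, by 0.007 to 0.177 (median 0.089), and none passed the test. Hk1 is among them; the other 9 had a median of 0.090. Pgam1, which interconverts the phosphoglycerates, came nearest. It was 9.48, 9.41, 9.23, 9.36 and 9.12 in wild-type forelimbs 1 to 5 and 9.49, 9.47, 9.50, 9.56 and 9.61 in knockout forelimbs 1 to 5, where 4 of 5 lay above every wild-type forelimb. Hindlimb levels were 9.47, 9.47, 9.35, 9.49 and 9.42 in wild types 6 to 10 and 9.82, 9.48, 9.47, 9.50 and 9.48 in knockouts 6 to 10. The knockout hindlimbs were nearly alike but for the first. Its change was 0.16 over both limb types (SE 0.0522, limma adjusted p = 0.133) and 0.21 in forelimbs (SE 0.0738, limma adjusted p = 0.21). Pgk1, the first enzyme of glycolysis to yield ATP, differed by a like 0.16 (SE 0.0538, limma adjusted p = 0.147), between 10.59 and 10.89 in wild-type and between 10.73 and 11.13 in knockout forelimbs. Aldoa, Tpi1, Pkm and Ldha, the aldolase, the triose isomerase, the pyruvate kinase and the lactate dehydrogenase, differed by 0.077 to 0.090.

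At the entry to the pathway the hexokinases Hk1 and Hk2 phosphorylate glucose. Hk1 in wild-type hindlimbs 6 to 10 was 10.28, 10.26, 10.22, 10.21 and 10.24, and in knockout hindlimbs 6 to 10 it was 10.39, 10.37, 10.38, 10.30 and 10.39. These groups did not overlap, and at 0.12 (SE 0.0465, limma adjusted p = 0.692) Hk1 had the smallest p of the 31 genes in hindlimbs. The value is doubtful as a measure of Hk1. That probe set is tied to the gene only by a single accession that is also listed for 16 probe sets assigned to Hk1 and Rpl17 together, and the probe set with a RefSeq transcript of Hk1 gave -0.12 (SE 0.0677). In wild-type forelimbs 1 to 5 Hk1 was 10.26, 10.25, 10.27, 10.28 and 10.34, and in knockout forelimbs 1 to 5 it was 10.27, 10.28, 10.33, 10.33 and 10.43.

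Hk2, the inducible hexokinase, was 7.12, 7.0, 6.91, 7.07 and 7.09 in wild-type forelimbs 1 to 5 and 7.10, 7.11, 7.02, 7.05 and 6.99 in knockout forelimbs 1 to 5. In wild-type hindlimbs 6 to 10 it was 6.81, 6.91, 6.90, 6.94 and 6.95, and in knockout hindlimbs 6 to 10 it was 7.53, 6.98, 6.87, 7.19 and 6.82. Outside knockout hindlimb 6 it thus stayed between 6.81 and 7.19. The phosphofructokinases Pfkl and Pfkp commit sugar to glycolysis. Pfkl was 8.25, 8.17, 7.93, 8.11 and 7.82 in wild-type forelimbs 1 to 5 and 8.19, 7.91, 8.24, 8.30 and 8.43 in knockout forelimbs 1 to 5. Wild-type hindlimbs 6 to 10 had 8.22, 8.24, 7.97, 8.16 and 8.16, and knockout hindlimbs 6 to 10 had 8.76, 8.30, 8.28, 8.35 and 8.04. In hindlimbs 4 of 5 knockouts lay above every wild type, the forelimb groups overlapped, and the change over both limb types was 0.18 (SE 0.0792, limma adjusted p = 0.296). Pfkp had changes of -0.03 (SE 0.124) in forelimbs and 0.05 (SE 0.124) in hindlimbs, and its lowest values were on wild-type forelimb 5 (4.88, against 5.38 to 5.50 on the other 4) and knockout hindlimb 10 (4.92, against 5.36 to 5.53).

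Among the genes that set the flux, Pfkfb3 makes the fructose bisphosphate that activates phosphofructokinase, and Pdk1 keeps pyruvate out of the mitochondrion. Pfkfb3 was 5.87, 5.87, 5.87, 5.85 and 5.46 in wild-type forelimbs 1 to 5 and 6.0, 5.84, 6.11, 6.21 and 6.30 in knockout forelimbs 1 to 5. Hindlimb levels were 5.99, 5.97, 5.85, 5.93 and 5.79 in wild types 6 to 10 and 6.56, 5.99, 5.72, 6.20 and 5.89 in knockouts 6 to 10. In forelimbs 4 of 5 knockouts lay above every wild type, and the hindlimb groups overlapped. The forelimb change was 0.31 (SE 0.121, limma adjusted p = 0.264). Pdk1 lay between 7.47 and 7.74 on the 10 wild-type arrays and reached 8.06 on knockout forelimb 5 and 8.33 on knockout hindlimb 6. Pfkfb4, a close relative of Pfkfb3, differed by 0.011 (SE 0.0445) over both limb types.

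The oxygen sensors and related hydroxylases were Egln1 and Egln3, the collagen prolyl hydroxylase subunits P4ha1 and P4ha2, and the histone demethylase Kdm3a. All 5 had a higher mean in the knockout over both limb types and none passed the test. Kdm3a was 7.78, 7.85, 7.62, 7.69 and 7.52 in wild-type forelimbs 1 to 5 and 7.85, 7.70, 7.83, 7.98 and 8.03 in knockout forelimbs 1 to 5. In wild-type hindlimbs 6 to 10 it was 7.68, 7.66, 7.71, 7.72 and 7.73, and in knockout hindlimbs 6 to 10 it was 8.17, 7.87, 7.82, 7.89 and 7.70. In hindlimbs 4 of 5 knockouts lay above a tight wild-type group. Its change was the same 0.19 in both limb types and 0.19 over both (SE 0.0571, limma adjusted p = 0.10). Egln1, the main oxygen sensor, lay between 7.65 and 7.74 on the 10 wild-type arrays. Knockout forelimbs 1, 3, 4 and 5 had 7.90, 7.90, 7.87 and 7.90, all above that range, and knockout forelimb 2 had 7.70. In knockout hindlimbs 6 to 10 it was 8.08, 7.70, 7.70, 7.83 and 7.70. The change over both limb types was 0.13 (SE 0.0473, limma adjusted p = 0.172).

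Vegfa, the main angiogenic factor under HIF control, and Adm, the vasodilator adrenomedullin, are secreted. Vegfa was 6.66, 6.95, 6.53, 6.74 and 6.54 in wild-type forelimbs 1 to 5 and 6.70, 6.62, 6.71, 6.84 and 7.02 in knockout forelimbs 1 to 5. Wild-type hindlimbs 6 to 10 had 6.66, 6.84, 6.62, 6.65 and 6.62, and knockout hindlimbs 6 to 10 had 7.18, 6.80, 6.84, 6.91 and 6.78. In hindlimbs the knockouts were above 4 of the 5 wild types, and wild-type hindlimb 7 was at or above 3 of them. The hindlimb change was 0.22 (SE 0.0912, limma adjusted p = 0.781). Adm differed by 0.11 (SE 0.0928) over both limb types.

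Of the other genes of mitochondria, stress and pH, Bnip3 had a change of 0.28 (SE 0.13, limma adjusted p = 0.314) and Ankrd37 of 0.27 (SE 0.101, limma adjusted p = 0.192) over both limb types. Bnip3 in wild-type forelimbs 1 to 5 was 8.25, 8.11, 7.82, 7.98 and 7.56 and in knockout forelimbs 1 to 5 it was 8.32, 7.94, 8.22, 8.35 and 8.81. Hindlimb levels were 8.24, 8.22, 7.95, 8.18 and 8.02 in wild types 6 to 10 and 9.12, 8.11, 7.98, 8.41 and 7.89 in knockouts 6 to 10. The groups overlapped in both limb types, and Bnip3 had the widest range of the 31 genes over the 20 arrays, 1.56. A second Bnip3 probe set had a mean of 7.39, beside 8.17 for the one used, and its own values are not given here. Pgk1, Pgam1 and Pkm also have probe sets that were not used. Ddit4, an inhibitor of mTOR signalling, differed by 0.13 (SE 0.0858), and Car9, a carbonic anhydrase of the cell surface, was dim throughout, between 3.59 and 4.33. Ndrg1, a stress response gene, differed by -0.04 (SE 0.0775). The transcriptional repressors Bhlhe40 and Mxi1 were the remaining genes with a lower mean in the knockout, by -0.13 (SE 0.10) and -0.03 (SE 0.0375), so 3 of the 31 genes pointed down.

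Within forelimbs 23 of the 31 genes had a higher mean in the knockout, with a median change of 0.092, while 50.4% of all genes were higher. None passed the test in limma, beside 1.27% of all genes. At an unadjusted p under 0.05 there were 7, all higher, beside 13.2% of all genes. The smallest adjusted p was that of Higd1a, 0.119, with a change of 0.42 (SE 0.124). Without wild-type forelimb 1, the high wild-type array, Higd1a passed with a change of 0.53 (SE 0.114, limma adjusted p = 0.0168). In that fit 436 of all 19936 genes passed. The forelimb median was 0.159 among the arrays with high Y-linked levels alone and 0.023 with the muscle mean as a covariate, when 18 of the 31 genes were higher. Within hindlimbs none passed in limma, beside 0.231% of all genes, and 5 had an unadjusted p under 0.05, all higher, beside 5.75% of all genes. The forelimb and hindlimb changes were set against each other in the same fit. None of the 31 genes differed between limb types in its genotype change in limma, beside 0.0201% of all genes, and none had an unadjusted p under 0.05, beside 3.63% of all genes. The widest difference was that of Egln3, whose change was -0.10 in forelimbs and 0.25 in hindlimbs, 0.35 apart (SE 0.192, limma adjusted p = 1), and without knockout hindlimb 6 they were 0.20 apart.

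Limb type was compared next, first in wild-type limbs. The genes split about evenly, with 14 higher and 17 lower in hindlimbs and a median of -0.003, beside 55.7% of all genes higher. None passed the test in limma, beside 3.26% of all genes, and 3 had an unadjusted p under 0.05, all lower in hindlimbs, beside 16.5% of all genes. Egln3, which with Egln1 hydroxylates HIF and is itself induced by it, was 5.43, 5.42, 5.73, 5.65 and 5.73 in wild-type forelimbs 1 to 5 and 5.08, 5.40, 5.16, 5.06 and 5.32 in wild-type hindlimbs 6 to 10. Every wild-type hindlimb was below every wild-type forelimb, by 1.31-fold on average (change -0.38, SE 0.136, limma adjusted p = 0.138). Ndrg1 was 6.67, 6.99, 6.84, 6.93 and 6.88 against 6.55, 6.66, 6.61, 6.48 and 6.61 in the same order, again with no overlap, a change of -0.28 (SE 0.11, limma adjusted p = 0.186). P4ha2 was 7.08, 7.0, 6.95, 6.79 and 6.76 against 6.52, 6.84, 6.59, 6.39 and 6.69, where 4 of 5 hindlimbs were below the forelimbs, a change of -0.31 (SE 0.103, limma adjusted p = 0.108). Some calls appeared when the setting changed: with the 10 wild-type arrays fitted alone, Egln3 (limma adjusted p = 0.033) and Ndrg1 (limma adjusted p = 0.0417) passed. In that fit 634 of all 19936 genes passed. Without knockout hindlimb 6, which enters only through the pooled spread, Egln3 passed as well (limma adjusted p = 0.0428), beside 731 of all genes. All 16 skeletal muscle markers were lower in wild-type hindlimbs and passed the test; their part in these differences was not tested beyond the covariate, with which the median change of the 31 genes was -0.16 and 3 were higher.

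In knockout limbs 18 of the 31 genes were higher in hindlimbs, with a median of 0.010, beside 51.6% of all genes. None of the 31 genes passed in limma for hindlimb against forelimb, beside 0.617% of all genes, and none had an unadjusted p under 0.05, beside 9.85% of all genes. Egln3 was 5.49, 5.22, 5.60, 5.45 and 5.71 in knockout forelimbs 1 to 5 and 6.05, 5.58, 5.31, 5.29 and 5.06 in knockout hindlimbs 6 to 10, a change of -0.03 (SE 0.136). Ndrg1 was 6.73, 6.58, 6.87, 6.40 and 6.94 against 7.12, 6.62, 6.56, 6.49 and 6.47, a change of -0.05 (SE 0.11). P4ha2 was 7.04, 6.56, 6.77, 7.14 and 6.99 against 6.77, 6.90, 6.66, 6.81 and 6.53, a change of -0.16 (SE 0.103, limma adjusted p = 0.662). For all 3 the knockout groups overlapped. The difference between the limb-type effects is the same quantity as the difference between genotype effects given above, and none of the 31 genes passed for it.

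Other genes of the pathway were counted in the same fit. Of 18 HIF pathway regulators, among them Hif1a, Arnt, Vhl and Egln2, none passed over both limb types in limma, with 9 higher and 9 lower and a median of 0.003. Of 38 other genes known to respond to low oxygen 1 passed, where 2.04% of all genes did: Lox, the collagen crosslinking enzyme lysyl oxidase, fell by 0.61 (SE 0.152, limma adjusted p = 0.0374), and the median of the list was 0.018. Of 17 other glycolysis genes 1 passed: Pgam2, the muscle form of the mutase, fell by 0.27 (SE 0.0641, limma adjusted p = 0.0281). Of 21 genes of pyruvate use and mitochondrial oxidation none passed, with a median of 0.018. In wild-type hindlimbs against forelimbs, where 3.26% of all genes were called, Vldlr and Kdm4c of the 38 and Pgam2 and Eno3, the muscle enolase, of the 17 were called lower, by changes of -0.54 (SE 0.113), -0.23 (SE 0.0596), -0.44 (SE 0.0907) and -0.37 (SE 0.0974). In knockout limbs, where 0.617% of all genes were called, Rora alone of these lists was called, at -0.27 (SE 0.0605, limma adjusted p = 0.0375). Pgam2 and Eno3 are the muscle forms, and muscle markers were also lower in wild-type hindlimbs. The part of muscle content in the Pgam2 and Eno3 calls was not tested.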

How the data were processed

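Total RNA of 20 single limbs was measured on 20 arrays, 5 in each of 4 groups. The deposited table holds linear intensities that the authors made by RMA, per the submitters' processing notes; no software version or annotation is named there, and the build is not given in the sources used here. The values were taken to log2 with no pseudocount, and no array was renormalised. Of 35512 probe sets, 1 had no values, 21789 had 1 gene symbol, 1621 had several and 12101 were unnamed; the single symbols were brought up to date by Entrez identifier for 21698, by accession for 3, and kept as on the platform for 88. This left 19936 genes, 1001 of them with several probe sets, each read by the probe set with the highest mean.

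One limma model (limma 3.58.1, R 4.3.3) with a mean for each of the 4 groups was fitted over all genes, with Benjamini-Hochberg adjustment over all of them and a threshold of 0.05. It was tested on simulated data. Other values were computed with Python 3.11.15 and pandas 2.3.3. No table column was without a sample, and no pair of arrays was identical. The titles call each array a biological replicate, but no label says whether limbs of a group are from different embryos. Y-linked levels were high on 3 of 5 wild-type hindlimbs, 2 of 5 knockout forelimbs and 3 of 5 knockout hindlimbs. Each of these groups thus holds limbs of more than 1 embryo. The p-values reflect only how far these arrays differ, and limbs of 1 embryo may be counted among them as separate. To check for pairing, limbs of the same side and label number were set together over both genotypes and limb types. Mean correlations of their deviations ran from -0.03 to 0.224, and 3 of 20 arrays correlated best with their own side and number. Right limbs were not set against left limbs, and each set mixes genotypes, so this check could not pick out limbs of 1 embryo. The numbers were not used to pair in the main fit.

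The genes and marker lists were chosen with earlier results of these data known. Values on every array are given for genes called in a comparison or, where fewer than 3 were called, for the 3 with its smallest p; genes with an outlying array are also given. Pathway lists name up to 4 called genes each. Alternatives were other scalings, array weights, covariates, subsets of arrays and probe-set choices. Promoter sequences are from RefSeq on GRCm38.p6.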

Additional observations from a re-analysis of the deposited data

Results flagged for a closer look

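Within each group of 5 arrays, Dixon's ratio divides the gap between an extreme array and its nearest neighbour by the whole range, and values above 0.71 were singled out. This took 12 of 124 pairs of gene and group (9.68%), beside 5.49% over all genes; chance takes about 1 in 20.

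On knockout hindlimb 6, 4 genes stood out as high: Pgam1 (ratio 0.930, 9.82 against 9.47 to 9.50 on the other 4 arrays), Slc2a3 (0.778), Ndrg1 (0.761, 7.12 against 6.47 to 6.62) and Slc16a3 (0.721). On wild-type forelimb 5, 3 genes stood out as low: Pfkfb3 (0.938, 5.46 against 5.85 to 5.87), Pfkp (0.801) and Pdk1 (0.779, 7.58 against 7.70 to 7.74). Ankrd37 was high on knockout forelimb 5 (0.840, 5.83 against 5.32 to 5.40), and Egln1 was low on knockout forelimb 2 (0.837, 7.70 against 7.87 to 7.90). Vegfa was high on wild-type hindlimb 7 (0.799, 6.84 against 6.62 to 6.66). Hk1 was low on knockout hindlimb 9 (0.782, 10.30 against 10.37 to 10.39), and Pfkp was low on knockout hindlimb 10 (0.720).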

How the results depend on the processing

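The single call over both limb types, Higd1a, was lost (0 genes called) among the arrays with high Y-linked levels, with the muscle mean as a covariate, with the mean of all probe sets and with the lowest-mean probe set, and leaving out 1 array gave 0 to 1. A replicate block grouped limbs of the same side and label number over both genotypes and limb types, so it does not stand for an embryo. With it the Higd1a call was kept (change 0.341, limma adjusted p = 0.0294), and the block changed no call among the 31 genes. In forelimbs 1 gene was called with a Y-linked covariate (Higd1a, 0.565, limma adjusted p = 0.032), beside 139 of all 19936 genes. Leaving out 1 array gave 0 to 1 there. For limb type in wild type, 1 gene was called with array weights (Egln3), beside 1260 of all 19936 genes. Among the high Y-linked arrays 1 was called (P4ha2), beside 419 of all genes. When only the groups compared were fitted 2 were called, beside 634 of all genes, and leaving out 1 array gave 0 to 1. Hindlimb genotype, limb type in knockouts and the difference between genotype effects gave 0 throughout. Hk1 in hindlimbs reversed to -0.12 with RefSeq-listed and to -0.12 with lowest-mean probe sets, both chosen after seeing the data. Pfkl by limb type in knockouts reversed to -0.031 with the muscle covariate; the cause was not tested. The median genotype change of the 31 genes stayed positive: over both limb types from 0.071 to 0.196 (leaving out 1 array, 0.081 to 0.149), in forelimbs from 0.023 to 0.18 (0.04 to 0.132) and in hindlimbs from 0.077 to 0.219 (0.051 to 0.169). Calls over all genes are given as the range over settings with all arrays or a subset and, in brackets, leaving out 1 array. For genotype they ran from 67 to 768 (260 to 595) against 406 over both limb types, 37 to 366 (124 to 436) against 253 in forelimbs and 13 to 82 (33 to 54) against 46 in hindlimbs. For limb type they ran from 11 to 1260 (311 to 848) against 650 in wild type and 13 to 210 (60 to 140) against 123 in knockouts, and for the difference from 0 to 9 (1 to 10) against 4. Fits of only the groups compared cannot give the values over both limb types or the difference.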

Other observations

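Genes outside the lists were ranked on knockout hindlimb 6 by their difference from the mean of the other 4 knockout hindlimbs. Sex-linked genes and provisional symbols (Gm numbers, Rik, LOC and names like accessions) were left out. Farthest above were, in order, Krt1, Krtdap, Klk1b22, Krt10 and Kcne3. These genes were named after their values were seen. Krt1, a keratin of the suprabasal epidermis, was 7.78 against 4.81 to 7.0 on the other 4, Krtdap 6.40 against 3.51 to 5.93, and Krt10, the partner of Krt1, 7.40 against 5.29 to 6.61. These 3 reached higher levels elsewhere among the 20 arrays, 8.38, 7.78 and 8.29. Klk1b22 (6.78 against 4.88 to 5.65) and Kcne3 (7.34 against 5.75 to 6.22) were at their highest of all 20 arrays. Those farthest below by the same rule were the transcription factor Ebf2 (5.61 against 6.73 to 7.12), Papss2, which makes the sulphate donor for cartilage matrix (6.09 against 7.04 to 7.60), and the transcription factors Foxc1 (6.32 against 7.39 to 7.82) and Ebf1 (7.64 against 8.69 to 8.92).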
